A study of Mus musculus with 3 samples.

Results

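The Id family (inhibitor of DNA binding) has 4 members in the mouse, Id1, Id2, Id3 and Id4, and each was matched by symbol to 1 of the 33696 genes in the deposited matrices. Their identifiers there are ENSMUSG00000042745 for Id1, ENSMUSG00000020644 for Id2, ENSMUSG00000007872 for Id3 and ENSMUSG00000021379 for Id4. The libraries came from trunks of mouse embryos cut between the third cervical and second thoracic segments, without forelimbs and thoracic organs, so that derivatives of somites and lateral plate were left together with the neural tube. Each of the stages E11.5, E12.5 and E13.5 (days of embryonic development) had 1 single-cell library, made from pooled TrypLE-freed cells of 3 littermates, and no genotype, strain or treatment is given in the sources used here. The 4 genes were chosen by their measured levels, which in earlier results of these data differed between cell types and between mesenchymal cells with and without a Sox9 UMI (a unique molecular identifier, which counts 1 captured RNA molecule). Levels by cell type and by Sox9 are therefore descriptions without a test.

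Id proteins have a helix-loop-helix domain but no basic region. They bind E proteins, the widely expressed basic helix-loop-helix (bHLH) factors encoded by Tcf3, Tcf4 and Tcf12, and keep them from pairing with tissue-specific bHLH factors such as MyoD on DNA. Bone morphogenetic proteins (BMPs), through the Smad1, Smad5 and Smad4 proteins, are the best known inducers of Id1, Id2 and Id3, and all members are known for holding progenitor cells back from differentiation in muscle, nerve and other tissues.

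The promoters of 3 members are shown because the levels of the family moved together in part and apart in part. They are the 250 bases before the start site in the RefSeq table for GRCm38.p6, which is not the build of the deposited files. RefSeq gave Id2 (chr12:25096093-25096342, minus strand), Id3 (chr4:136143572-136143821, plus strand) and Id4 (chr13:48260866-48261115, plus strand), and 3 of the 4 members matched. Capitals mark GGCGCC, the core of a GC-rich Smad site, CCAAT, the site of NF-Y, and GTCTG, a Smad binding element, each on either strand and from 5′ to 3′ on the strand of the gene.
Id2: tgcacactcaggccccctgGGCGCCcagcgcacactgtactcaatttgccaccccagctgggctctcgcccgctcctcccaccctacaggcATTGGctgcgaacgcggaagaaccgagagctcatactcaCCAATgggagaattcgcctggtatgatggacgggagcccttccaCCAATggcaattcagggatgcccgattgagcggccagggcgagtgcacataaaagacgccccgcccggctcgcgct
Id3: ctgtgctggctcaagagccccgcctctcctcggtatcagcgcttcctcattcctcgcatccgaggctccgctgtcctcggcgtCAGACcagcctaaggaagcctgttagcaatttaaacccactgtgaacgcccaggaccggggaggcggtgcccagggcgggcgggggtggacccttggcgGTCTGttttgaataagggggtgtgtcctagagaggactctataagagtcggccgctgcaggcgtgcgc
Id4: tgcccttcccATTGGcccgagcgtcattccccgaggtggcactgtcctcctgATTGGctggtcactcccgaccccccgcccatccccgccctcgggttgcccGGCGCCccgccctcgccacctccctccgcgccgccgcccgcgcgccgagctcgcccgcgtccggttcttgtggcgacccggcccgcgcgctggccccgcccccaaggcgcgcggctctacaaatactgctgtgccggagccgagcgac

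GGCGCC stood 1 time in the Id2 window, its first base -231 from the start, and 1 time in the Id4 window at -148, and 9.59% of 32851 promoter windows of the same length held it. CCAAT stood 3 times in Id2 and 2 times in Id4, and 33.8% of windows held it. GTCTG stood 2 times in Id3 alone of the 3, against 42.2% of windows. The E-box letters CANNTG, where E proteins bind, occurred 1 time in Id2, against 66.2% of windows. No motif overlapped another of those in capitals. A match describes letters in these windows and not a bound site.

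Barcodes with 4000 or more UMIs were taken as cells, which gave 6334, 6201 and 7594 in order of stage, and 10 to 16 barcodes were shared by any pair of libraries. The libraries held 94155624 to 113402193 UMIs, and the median cell had 12494, 11046 and 10261 UMIs in order of stage. Cells were put into classes by how many markers of each class had a UMI, and the names below mean no more than that. The mesenchyme-like class held 2430, 2982 and 4643 cells in order of stage, and 576, 382 and 379 of the cells reaching its minimum of 4 markers had exactly that number. A class set by Dpt, Lum, Twist2, Crabp1, Fbln1 and Clec3b was led by Lum, Dkk2 and Wnt2 at E11.5 and by Twist2 and Irx1 later, so it is called Twist2 and Lum mesenchyme here and not given a cell type. For Twist2 and Lum mesenchyme at E11.5, 347 of the 352 cells reaching the minimum of 4 markers had exactly that number. Exactly the minimum was also found in 207 of 303 for sclerotome-like cells at E11.5 and 70 of 111 for adipose precursor-like cells at E13.5. At E12.5 it was 126 of 336 for chondrogenic-like and 13 of 78 for Schwann and neural crest-like cells. The intervals given below do not cover the choice of these minimums. Erythroid-like cells were led by haemoglobin genes. Free RNA was estimated at 1.88, 1.60 and 2.34% of a cell's UMIs from haemoglobin in the median cell. From the summed haemoglobin UMIs it came to 2.16, 2.78 and 23.5%.

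Levels are given in CPM, a gene's summed UMIs scaled to 1000000 UMIs of the class, with the exact 95% Poisson interval, which covers counting error only. Levels are compared between classes and stages for 1 gene at a time. Id1 and Id3 were high in mesenchyme, muscle progenitors and neural progenitors and low in neurons and blood cells. Id2 shared the mesenchymal levels but was also seen in neurons, and Id4 was high in neural progenitors and neurons and low elsewhere. The plot of levels by class and stage shows these patterns for every class of at least 50 cells.

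**Figure D1:**
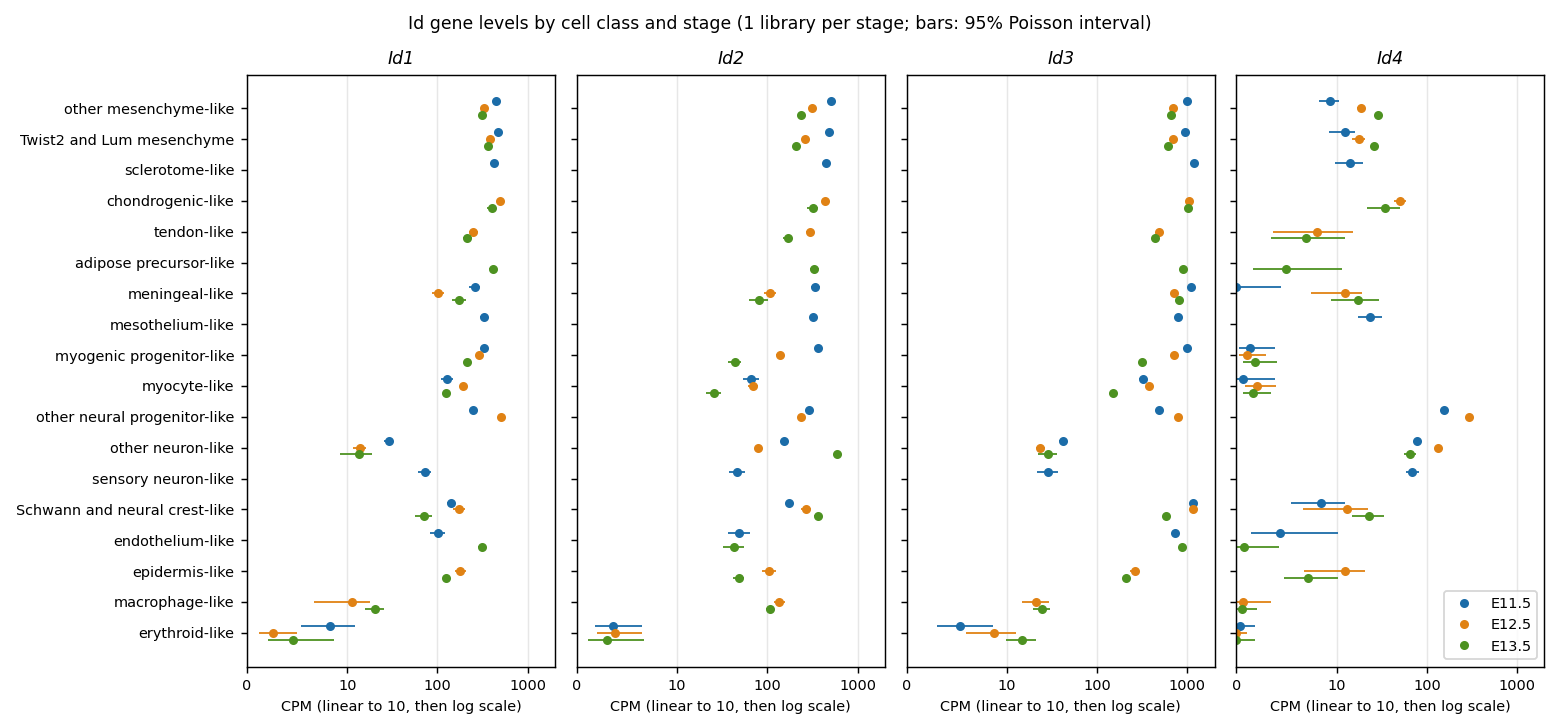
Level of each Id gene (x axis, CPM, linear to 10 and logarithmic above) in each class of at least 50 cells (y axis), with 1 point per library coloured by stage and the 95% Poisson interval as a bar. Id1 and Id3 points lie above 100 CPM in the mesenchymal classes at each stage and below 20 CPM in erythroid-like cells, while the highest Id4 points, from 65.2 to 290.5 CPM, are those of neural progenitor-like and neuron-like cells.

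Id1, which is prominent in endothelial and progenitor cells, was led at E11.5 by Twist2 and Lum mesenchyme at 463 (443 to 484) CPM and by the other mesenchyme-like cells at 439.7 (432 to 448). Sclerotome-like cells had 419 (394 to 445), and neighbours in the order of these 3 classes overlapped in their intervals. Myogenic progenitor-like cells followed at 328 CPM, and neural progenitor-like cells stood lower at 251. At E12.5 the order changed at the top, with neural progenitor-like cells at 513 (491 to 537) and chondrogenic-like cells at 488 (464 to 512). These intervals overlapped. At E13.5 adipose precursor-like cells (409, interval 370.1 to 449.8) and chondrogenic-like cells (401, interval 356 to 451) led with overlapping intervals. Endothelium-like cells stood at 101 (83.0 to 121) at E11.5 and 309.8 (280.3 to 341) at E13.5, and the class was too small to give a level at E12.5.

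Id3, a close relative of Id1 in structure and in its response to BMP, had its highest levels in sclerotome-like cells at E11.5 (1172, interval 1131 to 1215 CPM), in Schwann and neural crest-like cells at E12.5 (1167, interval 1098 to 1238) and in chondrogenic-like cells at E13.5 (1026, interval 953 to 1104). At E11.5 the Schwann and neural crest-like cells (1160.0) and meningeal-like cells (1103) overlapped with the sclerotome-like ones in neighbouring order. Endothelium-like cells had 722 CPM at E11.5 and 865 at E13.5. In Schwann and neural crest-like cells Id1 stood at only 141, 175 and 70.2 CPM over the stages. So this class was at the head of the order for Id3 at E12.5 and in the lower part of it for Id1.

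Id2, the member known for its part in immune and neural lineages, stood highest at E11.5 in the other mesenchyme-like cells (509.9, interval 501 to 519 CPM) and at E12.5 in chondrogenic-like cells (438, interval 416 to 461). At E13.5 the highest level was in the other neuron-like cells, those outside the sensory and sympathetic classes, at 589 (559 to 620.3) CPM. Schwann and neural crest-like cells came next at 362 (328 to 399), overlapping with adipose precursor-like cells at 333 (298 to 370.0). Macrophage-like cells had 136 CPM of Id2 at E12.5 and 108 at E13.5. The same cells had 11.2 and 20.2 CPM of Id1.

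Id4, the member most tied to the nervous system, was highest in neural progenitor-like cells, at 154 (147 to 160.5) CPM at E11.5 and 289.6 (273 to 307) at E12.5. At E13.5 only 47 neural progenitor-like cells were found and no level is given. The other neuron-like cells were next at E11.5 and E12.5, at 77.2 and 132 CPM, and first at E13.5 with 65.2. Sensory neuron-like cells, which lie outside the neural tube, had 68.5 (57.8 to 80.6) CPM at E11.5, overlapping with the other neuron-like cells. Outside the neural progenitor-like and neuron-like classes the highest Id4 level was 50.6 (43.2 to 58.9) CPM in chondrogenic-like cells at E12.5. Myogenic progenitor-like cells had at most 1.84 CPM. No Id4 UMI was found in erythroid-like cells at E12.5, and neural progenitor-like cells outside the roof and floor plate stood at least 333-fold higher, with 3 UMIs in the erythroid-like sum as the floor.

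Smaller classes filled in the pattern. Tendon-like cells at E13.5 had 215 CPM of Id1 and 439.9 of Id3, and at E12.5 489 of Id3, below the chondrogenic-like cells. Mesothelium-like cells, the lining of the body cavities, had 325 (299 to 352) CPM of Id1 and 23.5 (17.1 to 31.6) of Id4 at E11.5. Epidermis-like cells had 178 and 126 CPM of Id1 at the later stages and 105 and 48.5 of Id2. Meningeal-like cells, the coverings of the neural tube, had 258, 102 and 174 CPM of Id1 in order of stage and 1103, 709 and 807 of Id3. Sensory neuron-like cells at E11.5 had 72.3 (61.3 to 84.7) CPM of Id1, above the other neuron-like cells at 28.7 (25.6 to 32.1), and 45.8 (37.2 to 55.9) of Id2, below them at 152 (145 to 159.7).

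The lowest levels show what free RNA could give. Erythroid-like cells had 8.26, 2.62 and 4.59 CPM of Id1 and 5.29, 8.73 and 14.8 of Id3 in order of stage. In the other neuron-like cells Id3 stood at 23.6 (20.7 to 26.6) CPM at E12.5 and 28.7 (22.4 to 36.3) at E13.5, which overlapped with macrophage-like cells at 21.2 (14.7 to 29.6) and 24.2 (19.3 to 29.9). Free RNA alone would give 7.91 CPM of Id3 at E12.5 by the median-cell estimate and 13.7 by the summed one. At E13.5 the corresponding values were 10.3 and 103 CPM. The latter was above the whole level in neurons, macrophage-like and erythroid-like cells, so it is more than these classes held. The neuronal level of Id3 at that stage lay between the estimates. Its part from free RNA was not tested, and it is not read as expression.

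Between stages the family moved differently from class to class. The stages have 1 library each, so ratios carry an exact conditional binomial interval for counting error and no test. An Xist UMI was found in 62.1, 25.0 and 89.2% of cells thinned to 4000 UMIs. The mix of female and male cells thus differed between stages, and its part in the ratios was not tested. In mesenchyme-like cells Id1, Id2 and Id3 had lower levels at E12.5 than at E11.5, with log2 ratios of -0.36 (-0.40 to -0.33), -0.68 (-0.72 to -0.65) and -0.49 (-0.52 to -0.47). Id4 went the other way at 1.07 (0.88 to 1.25), from 10.1 to 21.1 CPM. The step to E13.5 was smaller for Id1 at -0.02 (-0.06 to 0.01) and Id3 at -0.16 (-0.19 to -0.14), while Id2 was lower again at -0.47 (-0.51 to -0.43). With the summed estimate of free RNA subtracted, these steps came to 0.15 for Id1 and -0.04 for Id3. At E13.5 that estimate was more than the whole Id3 level of some other classes. Of the 4 genes, 1 passed a log2 ratio of 1 upward in the first step, where 12.4% of genes did, and 0 passed it downward, where 2.36% did.

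Neural progenitor-like cells, the dividing cells of the neural tube, showed the opposite for Id1 and Id3. From E11.5 to E12.5 the log2 ratio was 1.03 (0.95 to 1.11) for Id1, 0.68 (0.62 to 0.74) for Id3 and 0.91 (0.81 to 1.02) for Id4, and -0.32 (-0.42 to -0.21) for Id2. Id1 went from 251 to 513 CPM, and Id3 from 501 to 804. Only Id1 passed a log2 ratio of 1, upward, as 9.06% of genes did. The numbers of cells were 1141 and 402. Among the partners of the family, Tcf4 stood at 379 and 1064 CPM at these stages, Tcf12 at 247 and 425, and Tcf3 at 215 and 170.1.

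In muscle progenitors the 3 abundant members had lower levels at each later stage. Myogenic progenitor-like cells needed UMIs of at least 3 of Pax7, Myf5, Myod1, Chrna1, Msc, Fgfr4 and Cdh15. They had 368 (344 to 394), 138 (125 to 152) and 43.3 (36.4 to 51.1) CPM of Id2, log2 ratios of -1.42 and -1.67. Id3 went from 981 to 702 and 311 CPM, with ratios of -0.48 and -1.17, and Id1 from 328 to 289 and 213. A log2 ratio of -1 or less was found for Id2 alone in the first step, where 3.72% of genes passed it, and for Id2 and Id3 in the second, where 3.91% did. Myocyte-like cells, set by markers such as Myog and contractile genes, had less than the progenitors at every stage for these 3 genes. Their Id2 level was 66.4, 69.5 and 25.4 CPM, and their Id3 level 320.4, 377 and 150.3. Myod1, whose product pairs with E proteins, stood at 99.9, 206 and 193 CPM in the progenitors and at 894, 791 and 609 in the myocyte-like cells. It is a marker of the progenitor class, so its level there depends in part on the class rule.

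Schwann and neural crest-like cells, the glia and precursors of the peripheral nerves, had more Id2 and less Id1 and Id3 at E13.5 than at E12.5. Id2 stood at 174 (159.7 to 190.0), 271 (239 to 307) and 362 (328 to 399) CPM. Between E12.5 and E13.5 the log2 ratio was -1.32 (-1.72 to -0.92) for Id1 and 0.42 (0.19 to 0.65) for Id2, and Id3 went from 1167 to 584 CPM. Id1 passed a log2 ratio of -1, as 3.15% of genes did. The Id1 ratio of 0.30 from E11.5 to E12.5 turned to -0.33 when 1 more marker was needed for a class.

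**Figure D2:**
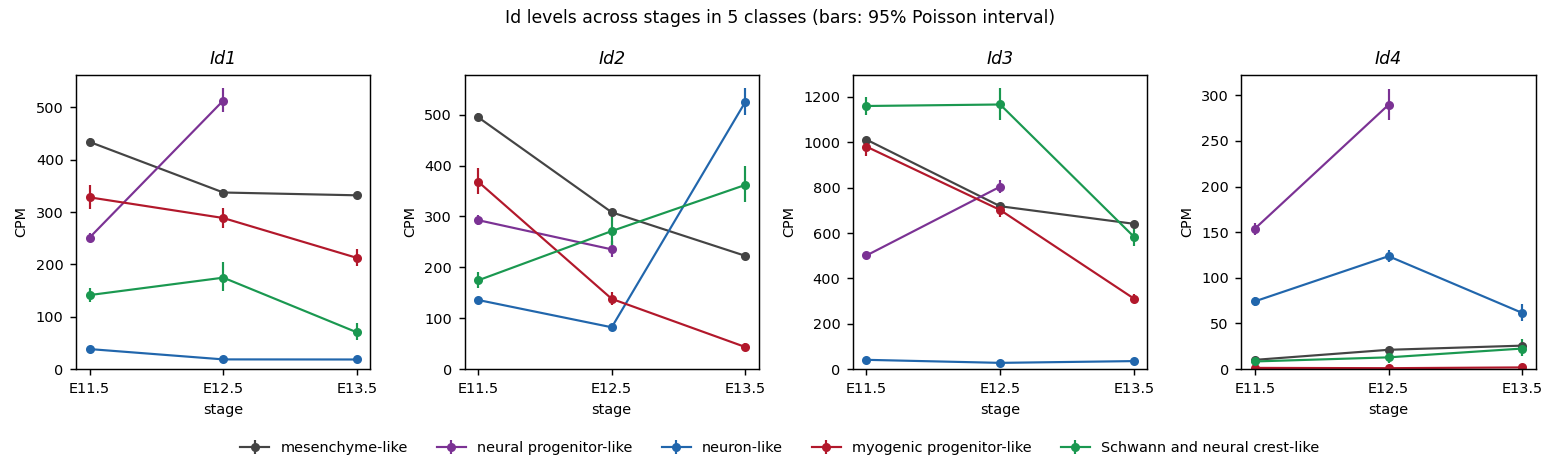
Level of each Id gene (y axis, CPM from 0) at the 3 stages (x axis) in 5 classes, 1 library per point with its 95% Poisson interval. Id2 in neuron-like cells stands at 82.2 CPM at E12.5 and 525 at E13.5, while in myogenic progenitor-like cells it goes from 368 to 43.3 over the 3 stages.

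The largest ratio between adjacent stages among the 4 genes in mesenchyme-like, neural progenitor-like and neuron-like cells was that of Id2 in neuron-like cells, at 2.68 (2.56 to 2.79) from E12.5 to E13.5. Among genes measured there 3.57% had a log2 ratio of 1 or more. Id2 levels in neuron-like cells were 136 (129.7 to 142), 82.2 (77.1 to 87.5) and 525 (499 to 553) CPM in order of stage. The share of thinned cells with an Id2 UMI was 31.0, 18.2 and 48.5%. Erythroid-like cells, taken as lacking the gene, had 0.847, 2.06 and 1.83%. Before thinning the shares in neuron-like cells were 50.1, 29.8 and 54.9%, at median depths of 9919, 8364 and 6286 UMIs. The log2 ratio was 1.71 with a minimum of 8000 UMIs. Id4 had the opposite sign in this step at -1.01 (-1.24 to -0.78), after 0.74 (0.62 to 0.86) in the step before. Id4 passed a log2 ratio of -1 in the second step, as 5.12% of genes did, and Id1 in the first at -1.05, as 4.73% did.

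After this was seen, the other neuron-like cells were divided by UMIs of lineage genes. Those called excitatory were Tlx3, Lmx1b and Slc17a6, and those called inhibitory Pax2, Lhx1, Lhx5, Gad2 and Slc32a1. A cell needed at least 2 UMIs of one kind and fewer than 2 of the other. The names mean these genes and no more. UMIs of a single gene could be enough, and Lhx1 was among the genes that led the other neuron-like class at E11.5 and E12.5. Cells of other kinds may therefore lie in the inhibitory group. At E13.5 Id2 stood at 1270.3 CPM (1191 to 1354) in 115 cells with inhibitory genes and at 282 CPM (255 to 309.9) in 232 cells with excitatory genes. Thinned cells with an Id2 UMI made up 73.0% of the former and 40.1% of the latter. At E11.5 the levels were 131 CPM (121 to 142) and 129 CPM (116 to 143), which overlapped, and at E12.5 they were 79.8 CPM (72.4 to 87.7) and 66.2 CPM (58.4 to 74.8). Both groups of cells had more Id2 at E13.5 than at E12.5. Id4 was higher in cells with inhibitory genes at each stage, 184 CPM (172 to 195) against 66.5 CPM (58.6 to 75.1) at E12.5. Inhibitory genes marked 46.6, 52.4 and 30.8% of these neurons over the stages, so the mixture of neurons differed as well. This split was chosen after the values were seen and is a description.

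**Figure D3:**
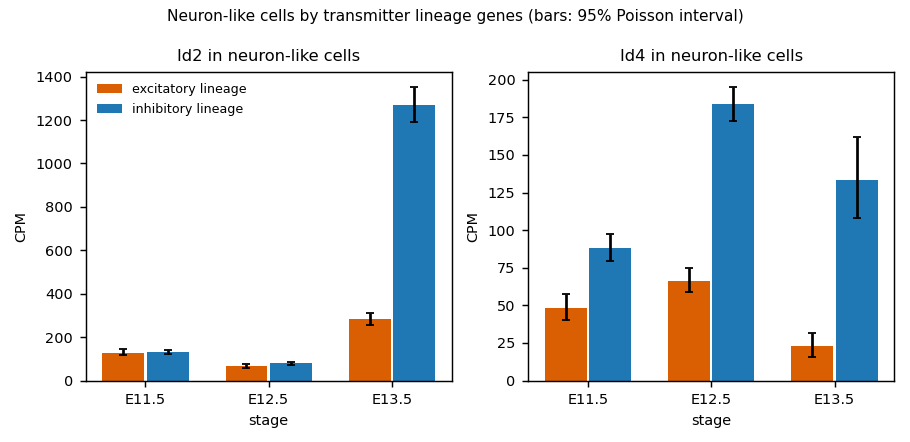
Levels of Id2 and Id4 (y axis, CPM from 0) in the other neuron-like cells with excitatory or inhibitory lineage genes at each stage (x axis), with 95% Poisson intervals. Id2 in cells with inhibitory genes at E13.5 stands at 1270.3 CPM, while the other Id2 bars lie at 282 CPM or below.

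Within single cells thinned to 4000 UMIs the members were often found together. In mesenchyme-like cells each pair stood above the share that independent genes would give, for some pairs within counting error. Id1 and Id2 were both found in 37.4% of these cells at E12.5, against 30.9% if independent. At E13.5 the shares for this pair were 32.3 and 26.6%. Id1 and Id3 were both found in 60.1% of mesenchyme-like cells at E11.5, against 57.3% if independent. At E12.5 these shares were 49.6 and 44.7%. In mesenchyme-like cells UMIs of 3 Id genes were found in 46.3, 33.0 and 28.6% of cells over the stages and of none in 3.50% at E11.5 and 9.86% at E12.5. All 4 were found in 17.7% of neural progenitor-like cells at E12.5 and 7.19% at E11.5. Neuron-like cells had none of the 4 in 45.8, 48.7 and 40.6% of cells. Mesenchyme-like cells with an Id1 UMI had an Id2 UMI in 65.5% at E12.5, against 39.0% of those without, and for Id3 the shares were 86.9 and 67.1%. In neuron-like cells at E12.5 an Id4 UMI was less frequent among cells with Id2, in 20.8% of those and 33.6% of cells without. At E13.5 it was more frequent among cells with Id2, in 23.4% of cells with and 11.0% without. These shares describe cells of 1 library each.

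**Figure D4:**
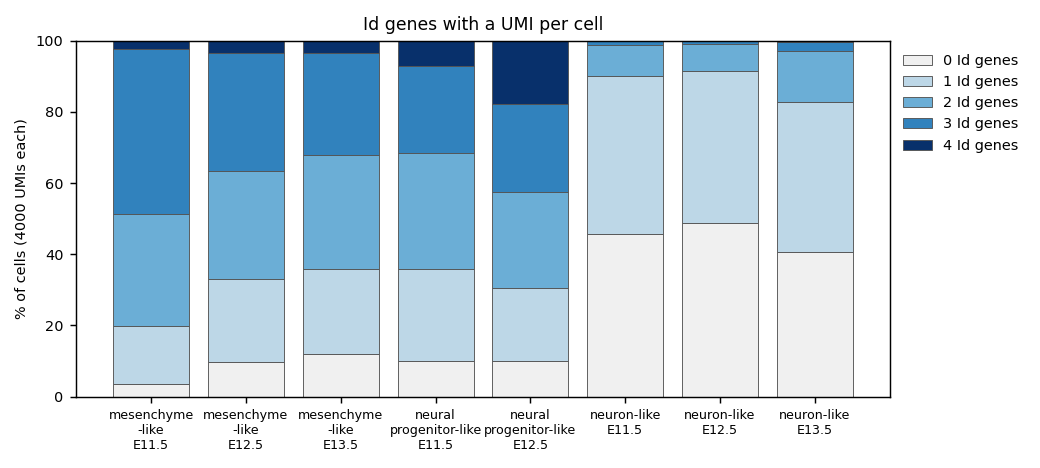
Share of cells (y axis, %) with UMIs of 0 to 4 Id genes in mesenchyme-like, neural progenitor-like and neuron-like cells at each stage (x axis), each cell thinned to 4000 UMIs. The segment for 4 genes reaches 17.7% in neural progenitor-like cells at E12.5, and the segment for none is 40.6 to 48.7% in neuron-like cells.

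Across 40 points, each a class in a library, the log2 levels of Id1 and Id3 followed each other with a Pearson r of 0.92 and a Spearman rho of 0.76. Id2 was less like either, with r of 0.66 to Id1 and 0.66 to Id3. Id4 stood apart, at 0.27 to Id1, 0.51 to Id2 and 0.20 to Id3. The points of a library share its cells' source, and some points are sub-classes of the same lineage, so these values describe the pattern only. Among 6911 genes the patterns most like Id1 were those of Id3 (0.92), Tcf7l1 (0.92), Mpdz (0.91), Rcn1 (0.91) and Tead2 (0.91), and those most like Id3 were Tcf7l1 (0.95), Yap1 (0.94), Serpinh1 (0.93), Mest (0.93) and Mpdz (0.92), with r in brackets. The 5 genes most like Id3 by r had a Spearman rho with it of 0.64 to 0.72, below its 0.76 with Id1. By r Id2 was closest to Fndc3a (0.86), Zfp260 (0.86), Slc39a6 (0.86), Tnrc18 (0.86) and Hspa13 (0.86). Their rho with Id2 was 0.57, 0.72, 0.62, 0.61 and 0.60 in the same order, against 0.62 for Id1 and 0.62 for Id3. Id4 was closest by r to Cacng4 (0.88), Fez1 (0.85), Hoxc6 (0.84), Syt11 (0.84) and Magi2 (0.84).

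Sox9, the transcription factor of cartilage and sclerotome, was used to choose the family. Mesenchyme-like cells were divided by a Sox9 UMI after thinning, which gave 903 against 1527, 826 against 2156 and 915 against 3728 cells. Id3 stood at 1289.6, 976 and 819.7 CPM in cells with Sox9 and at 889, 636 and 606 in cells without. The log2 ratios were 0.54, 0.62 and 0.44 for Id3. For Id2 they were 0.40, 0.64 and 0.42, and for Id1 0.35, 0.40 and 0.17. All intervals of these 9 ratios lay above 0. Id4 was higher beyond counting error at E12.5 alone, at 1.62 (1.26 to 1.98), against 0.12 (-0.50 to 0.74) and 0.12 (-0.22 to 0.44) at the other stages.

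Chondrogenic-like cells made up 4.10, 29.1 and 5.57% of the cells with Sox9, and at E12.5 1.11% of those without. Chondrogenic-like, tendon-like and sclerotome-like cells were then left out, together with mesenchyme-like cells that met several sub-classes. The mean log2 ratio over libraries was 0.28 for Id1, 0.52 for Id2, 0.53 for Id3 and 0.43 for Id4. With all these cells it was 0.30, 0.49, 0.53 and 0.62. None of the 4 had a ratio of 0.5 or more in every library, a size that 0.573% of 11521 genes reached upward and 0.59% downward. Among the pathway genes, Bmper, a secreted modulator of BMP signalling, reached it upward, with 2.08 at E11.5 and 2.34 at E12.5. The BMP antagonists Grem1 and Nbl1 and the bHLH factor Hand2 reached it downward, Nbl1 with -0.68, -1.36 and -0.77. None of the 3 E proteins, 4 BMP ligands, 11 receptors and Smads or 9 feedback and target genes with enough UMIs reached it in either direction.

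A further 3 contrasts, which the choice of the genes had not used, were tested with edgeR's quasi-likelihood test on UMI sums per library and arm, with the library as a block. The first and second were set in the same mesenchyme-like cells as the division by Sox9. The libraries differ in stage, so the replicate spread of a contrast is its spread over stages. In the first, mesenchyme-like cells with a UMI of Smad6, Smad7, Bambi or Atoh8, genes that BMP signalling induces and that mostly damp it, were set against cells with none. Id1, Id2 and Id3 were higher in the cells with a feedback UMI. Id2 stood at 545, 371 and 277 CPM with and 456, 289.8 and 218 without. Its log2 change by edgeR was 0.31 (SE 0.0365, adjusted p = 7.74e-05), and it was higher in 3 of 3 libraries. Id3 stood at 1125, 860.4 and 698 CPM with and 968, 662 and 627 without, a change of 0.24 (SE 0.0353, adjusted p = 0.000985) in the edgeR fit. Id1 stood at 511, 396 and 347 with and 391, 316 and 329 without, a change of 0.25 (SE 0.0475, adjusted p = 0.00976) in edgeR. The differences were small beside those between classes.

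Id4 had a change of the same size, 0.33 (SE 0.11, adjusted p = 0.243) in edgeR, which did not pass. The 3 of 4 members that rose stand beside 0.677% of 12416 genes tested that rose and 0.234% that fell. The median log2 change was 0.28 over the family and -0.002 over all genes. Of the other BMP feedback and target genes, 1 of 5 tested rose, Msx2, a homeobox gene of BMP-exposed mesenchyme, at 0.86 (SE 0.13, adjusted p = 0.000985) by edgeR. Among tissue-specific bHLH factors 2 of 7 rose, the tendon factor Scx and Hand2, at 0.36 (SE 0.0686, adjusted p = 0.0106) and 0.64 (SE 0.15, adjusted p = 0.044) by edgeR. None of 7 BMP ligands, 11 receptors and Smads, 10 antagonists or 3 E proteins passed. All 4 members had enough UMIs to be tested. DESeq2 kept Id2 (adjusted p = 0.00811) but neither Id3 (0.121) nor Id1 (0.455), and Id1 missed the threshold in edgeR when 1 more marker was needed for a class (adjusted p = 0.109). Without the library as a block none of them passed in edgeR (the unadjusted p of Id2 was 0.419). Sox9, by which the family was chosen, had a change of 0.26 (SE 0.12, adjusted p = 0.539) in the same edgeR fit. It did not pass, and its part in the Id changes was not tested. Sclerotome-like cells made up 4.61% of the arm with feedback UMIs and 8.47% of the other at E11.5, and chondrogenic-like cells 12.2 and 7.10% at E12.5. In mesenchyme-like cells outside all named sub-classes the changes by edgeR were 0.27 for Id1, 0.25 for Id2 and 0.28 for Id3, with adjusted p = 0.000153, 0.000441 and 1.86e-06. With the arms set by Msx1 or Msx2 in place of the feedback genes, the log2 changes were larger, at 0.58, 0.81 and 0.43, and the edgeR adjusted p = 0.000352, 2.06e-07 and 9.77e-05.

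The second contrast asked whether the family follows the cell cycle, since Id proteins are known to favour proliferation. Mesenchyme-like cells with 3 or more UMIs over 15 genes of G2 and M phase were set against cells with none. The arms held 1389, 858 and 1332 cells with these UMIs in order of stage, and 514, 1391 and 2028 without. Before thinning the arms' median cells had 15730.0, 14809 and 12886 UMIs with and 11168, 10786 and 8882 without. None of the 4 members passed in edgeR or DESeq2 (1 of 4 had an unadjusted p under 0.05 in edgeR), while 25.4% of 12425 genes changed in one direction or the other by edgeR. The log2 change was 0.05 (SE 0.0562, adjusted p = 0.563) for Id1 by edgeR. By the same edgeR fit it was -0.09 (SE 0.0606, adjusted p = 0.309) for Id2 and -0.01 (SE 0.0475, adjusted p = 0.897) for Id3. Id4 had -0.43 (SE 0.19, adjusted p = 0.106) in edgeR, with library values of 0.84, -0.45 and -0.82. Without the E11.5 library its change was -0.66 with an edgeR adjusted p = 0.00156. Of the 7 tested bHLH partners of E proteins, 3 rose with G2 and M phase genes, namely Tcf15, Twist1 and Twist2. Their changes in edgeR were 0.78, 0.31 and 0.60. Twist2 and Lum mesenchyme was 25.5% of the arm with these genes and 10.5% of the other at E12.5, and its part in those changes was not tested. Among BMP genes, Grem1 rose and Chrd, Gdf6 and Acvr1 fell, with 0.47, -0.90, -1.46 and -0.37.

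The third contrast was set in the neural tube, where Pax3 and Pax7 mark the dorsal side. Neural progenitor-like cells with a UMI of either gene were set against cells with neither, 688 against 453 at E11.5 and 252 against 150 at E12.5, and E13.5 had too few cells. Id3 and Id4 were lower in the cells with Pax3 or Pax7. Id4 stood at 117 and 195 CPM with and 220.2 and 403 without, lower in 2 of 2 libraries, and its log2 change was -0.98 (SE 0.13, adjusted p = 4.28e-05) in edgeR. Id3 stood at 391 and 597 CPM with and 592 and 932 without, also lower in both, with -0.62 (SE 0.10, adjusted p = 0.00068) in edgeR. Id1 had -0.24 (SE 0.12, adjusted p = 0.419) and Id2 0.19 (SE 0.12, adjusted p = 0.624) in the same edgeR fit. Id4 and Id3 passed in DESeq2 as well (adjusted p = 0.00588 for Id4 and 0.048 for Id3) but not in edgeR without the library as a block (unadjusted p = 0.0285 and 0.0702). The 2 members that fell stand beside 1.75% of 9209 genes that fell and 0.923% that rose.

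Partners of the family changed in the same contrast. The E protein gene Tcf12 was higher in the cells with Pax3 or Pax7, at 0.77 (SE 0.15, adjusted p = 0.00323), while Tcf4 had 0.34 (SE 0.11, adjusted p = 0.145) and Tcf3 0.17 (SE 0.14, adjusted p = 0.711) in edgeR. Ptf1a, a bHLH factor of the dorsal neural tube, rose by 1.16 on the log2 scale, and Neurog1 and Neurog2 changed by -1.40 and -0.74. Of 15 genes of G2 and M phase 5 rose and none fell, among them Top2a at 0.74 and Mki67 at 0.72, so the arms differed in dividing cells too, and the part of this in the Id values was not tested. None of 9 receptors and Smads, 4 antagonists or 6 feedback and target genes of BMP passed. Among the last, Msx1 had 1.05 (SE 0.32, adjusted p = 0.101) and Msx2 0.91 (SE 0.28, adjusted p = 0.11) in edgeR. Hey1 and Bambi had -0.59 and -0.35. With arms of at least 10 cells the E13.5 library could enter, and Id3 and Id4 had changes of -0.53 and -0.88, with edgeR adjusted p = 0.00337 and 4.02e-05.

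**Figure D5:**
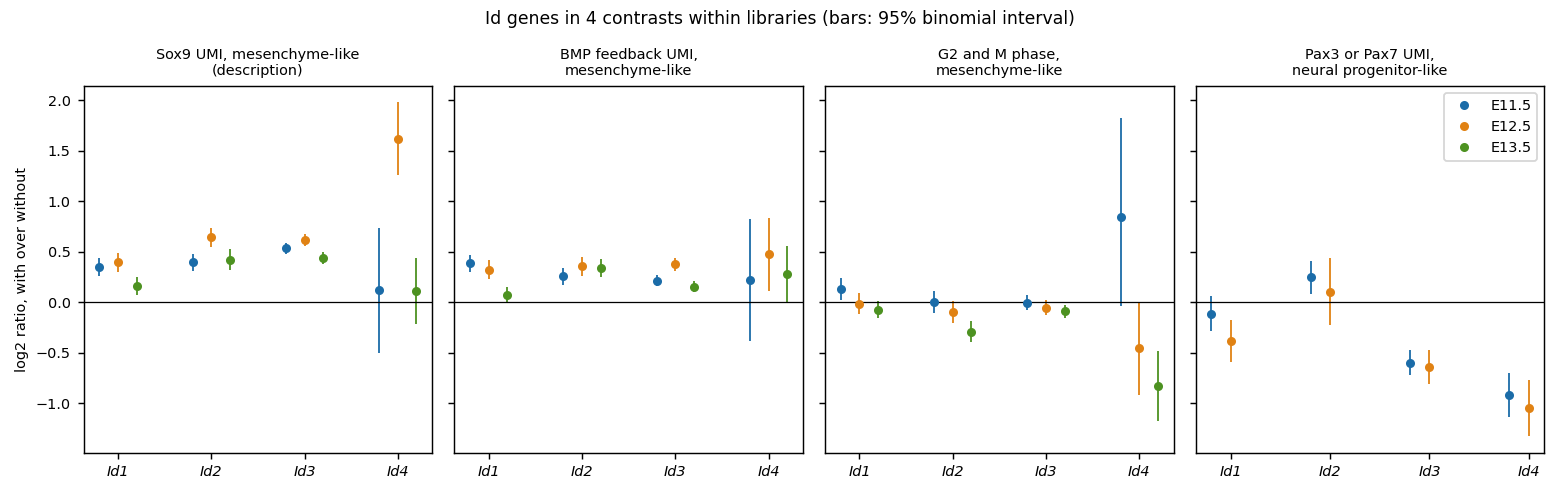
Log2 ratio of each Id gene between cells with and without the named UMIs (y axis) in each library, coloured by stage, with 95% conditional binomial intervals, for the Sox9 description and the 3 tested contrasts. Ratios of Id1, Id2 and Id3 lie above 0 for Sox9 and for BMP feedback genes, and those of Id3 and Id4 lie below 0 for Pax3 or Pax7.

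The E proteins that the family binds were measured in the same cells. In mesenchyme-like cells Tcf3 stood at 233, 173 and 129 CPM in order of stage, Tcf12 at 250.3, 179.6 and 166, and Tcf4 at 350.1, 533 and 536. So Tcf4 was higher after E11.5 while Tcf3 and Tcf12 were lower. In neuron-like cells, where Id1 and Id3 were low, Tcf4 stood at 176, 510.2 and 971 CPM and Tcf3 at 77.6, 65.7 and 54.3. Among BMP ligands, Bmp4 had 98.1, 77.0 and 38.9 CPM in mesenchyme-like cells and 1.29 and 0.267 in neural progenitor-like cells at E11.5 and E12.5. The type I receptor gene Bmpr1a stood at 63.3, 68.4 and 63.3 CPM in mesenchyme-like cells and at 45.7 and 57.0 in neural progenitor-like cells. The feedback gene Bambi, a pseudoreceptor, stood at 117, 38.9 and 37.1, and Msx2 at 60.8, 7.03 and 2.15 CPM in mesenchyme-like cells. Both were highest at E11.5 as Id1, Id2 and Id3 were, and a link between them was not tested. They are only part of the feedback and target list, and the stage levels of its other genes are not given here.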

How the data were processed

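Single cells of mouse trunks were sequenced with a 10x Genomics Chromium 3′ kit, per the labels' protocols, in 1 library per stage with cells of 3 pooled littermates. The deposited values are raw UMI counts per gene and barcode over all barcodes. Per the submitters' processing notes, the tool was Cell Ranger (8.0.1) and the genome build GRCm39.

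Barcodes with 4000 or more UMIs were kept. A cell's class needed a set number of its markers with a UMI. These minimums were set after the distributions of the markers, but not the Id values, had been seen. Cells that met several of the main classes were left out, which is how doublets were treated, and no doublet caller was run. Cells that met several sub-classes of mesenchyme (71, 102 and 88 in order of stage) or of neurons (5 or fewer) stayed in the parent class and its arms. Those of mesenchyme were left out only in the alternatives without named sub-classes. UMIs were summed per class and library, and classes under 50 cells were not given a level. A log2 stage ratio was read as called at 1 or more in size among genes with at least 20 UMIs over both stages. Intervals are exact (95%) and cover counting error only. For shares of cells with a UMI and for all contrasts within a class, each cell was thinned to 4000 UMIs, which lost no cell. Free RNA was measured in droplets of 50 to 500 UMIs.

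Contrasts were tested on UMI sums per library and arm with edgeR 4.0.16 (TMM, filterByExpr, quasi-likelihood test, the library as a block) in R 4.3.3, adjusted by Benjamini-Hochberg over all genes tested, at 0.05. An arm needed 20 cells. The block pairs arms because both arms come from the same library. The p-values measure the spread between these libraries, which are also the stages, and edgeR borrows part of that spread from other genes. With only 2 libraries in the dorsal contrast, its p-values lean on this borrowing. There Id4 had an unadjusted p of 1.7e-07 in edgeR with TMM and 2.2e-12 with RLE normalization. Its change was -0.98 in both. DESeq2 1.42.0 was an alternative. An SE given with an edgeR change is the size of the change divided by the square root of the test's F statistic. By DESeq2 the SE was larger, at 0.23 for Id4 in the dorsal contrast and 0.069 for Id2 in the BMP feedback contrast. The Sox9 ratio added 0.5 to both sums and was read over genes with 20 or more UMIs in each library. Likeness used log2(CPM + 1) over genes that reached 50 CPM in at least 1 point. The script was tested on simulated data with 200 genes changed by a log2 of 1. Of these, 91.5% were recovered in the BMP feedback contrast among 12246 genes, 91.0% for G2 and M phase and 76.4% in the dorsal contrast. False calls made up 8.04, 5.21 and 6.17% of those called, in the same order. Changes as small as those of the Id genes in the BMP feedback contrast were not simulated.

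The 4 members, the gene lists and the contrasts were chosen with earlier results of these data known. The text names all members, list genes that passed a test (except an item that is not reported here), the 5 genes most like each member, and genes given as levels because of their role. The split of neurons by transmitter lineage genes was chosen after the values were seen. All columns of per-sample values were used. Promoters are from RefSeq (GRCm38.p6) and serve for sequence only.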

Additional observations from a re-analysis of the deposited data

Results flagged for a closer look

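Between stages some classes moved in opposite directions for the same gene, with 1 library per stage, and the differences were not tested. From E11.5 to E12.5 the log2 ratio of Id1 was higher by 1.39 in neural progenitor-like than in mesenchyme-like cells, and by 2.08 than in neuron-like cells. For Id3 over the same step the corresponding differences were 1.18 and 1.26. From E12.5 to E13.5 the log2 ratio of Id2 was higher by 3.15 in neuron-like than in mesenchyme-like cells, and that of Id3 by 0.52. The Id3 value rests on a neuronal level at E13.5 that lay between the estimates of free RNA, and it is not read as expression. Over that step the log2 ratio of Id4 was higher by 1.29 in mesenchyme-like than in neuron-like cells.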

How the results depend on the processing

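Of 1100 values of Id levels under alternative settings, 900 moved by less than counting error and 200 by more. Of 765 stage ratios, 655 did not move beyond it. In all 26 changed sign, 6 of them from a ratio whose interval excluded 0. The depth limits Id4 outside neural progenitors and neurons and the classes near 50 cells. Where a value moved or turned, the cause was not tested. With a minimum of 8000 UMIs the log2 ratios from E11.5 to E12.5 in neural progenitor-like cells were 1.199 for Id1, -0.18 for Id2, 0.94 for Id3 and 1.08 for Id4. In neuron-like cells they were -0.52 for Id2 and 0.51 for Id4, and from E12.5 to E13.5 they were 1.71 for Id2, 1.02 for Id3 and -0.61 for Id4. In mesenchyme-like cells Id2 had -0.53 over that later step, and in the other neuron-like cells Id3 turned to 0.076 from E11.5 to E13.5. With 1 more marker needed for a class, Id3 from E11.5 to E12.5 had 0.77 in neural progenitor-like and -0.33 in neuron-like cells. Under that rule Id1 in Schwann and neural crest-like cells turned to -0.33, and Id3 in erythroid-like cells from E11.5 to E13.5 turned to -0.89. Without the cells of highest UMIs, Id1 in neuron-like cells had -1.28 from E11.5 to E12.5. With free RNA from summed haemoglobin subtracted, an alternative added after seeing the data, it had -1.38 and Id3 -1.02. From E12.5 to E13.5 that subtraction gave 3.01 for Id2 in neuron-like cells and, in mesenchyme-like cells, 0.15 for Id1, -0.32 for Id2 and -0.044 for Id3. It turned Id1 to 0.10 in Twist2 and Lum mesenchyme and to 0.10 in the other mesenchyme-like cells, where Id3 turned to 0.050.

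For Sox9, leaving out 1 library gave 150 to 294 genes higher and 130 to 306 lower, against 66 and 68. The number lower was 42 without chondrogenic-like, tendon-like and sclerotome-like cells and those that met several sub-classes. Leaving out a library put the mean log2 ratio at 0.26 to 0.37 for Id1, 0.41 to 0.53 for Id2, 0.49 to 0.58 for Id3 and 0.13 to 0.88 for Id4, the lowest without E12.5.

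In the BMP feedback contrast 84 genes rose and 29 fell in edgeR. DESeq2 gave 12 and 2, no filter on low counts 167 and 143, the stricter class rule 50 and 13, and unthinned UMIs 217 and 99. Arms set by Msx1 or Msx2 gave 84 lower, and leaving out 1 library 87 to 153 higher and 44 to 86 lower. In the G2 and M phase contrast 1730 rose and 1423 fell, against 845 and 256 by DESeq2, and leaving out a library gave 1224 to 1741 and 747 to 1420. In the dorsal contrast 85 rose and 161 fell. DESeq2 gave 9 and 34, no filter 139 higher, RLE normalization 136 higher, and unthinned UMIs 344 and 405. No library was left out there, since 1 library leaves no spread to test against.

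Without the replicate block, edgeR gave 2 genes higher and 0 lower for BMP feedback, 334 and 7 for G2 and M phase, and 2 and 1 for the dorsal contrast, and no Id gene passed in any of them. For BMP feedback 58 genes then had an unadjusted p under 0.05, against 1128 in edgeR and 184 in DESeq2 with the block. Leaving out a library ended no call of Id1, Id2 or Id3 in the BMP feedback contrast. For G2 and M phase, where no member passed, the log2 change of Id3 was 0.0080 with no filter, 1.69e-05 without the replicate block and, with 1 library left out, -0.049 to 0.046. With 1 library left out that of Id1 was -0.021 to 0.13 and that of Id2 -0.17 to 0.030. With no filter on low counts Id4 passed in this contrast (edgeR adjusted p = 0.028).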
